A study of Mus musculus with 12 samples.

Results

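The genes described here encode histone acetyltransferases and their BRPF partner proteins, 10 in all: Brpf3, Brpf1, Brd1, Kat2a, Kat2b, Kat5, Kat6a, Kat6b, Kat7 and Kat8. All 10 were found among the 21468 protein-coding genes with a usable start in the RefSeq gene table of GRCm38.p6, the assembly behind mm10. They were selected on the measured H3K36ac peak calls of these samples, so their calls, positions and ranks are given as a description and carry no test. H3K36ac was mapped by ChIP-seq in spermatogonia of Pnd 5 mice, with 3 samples of each genotype, WT and Sirt7-/-, which gave 6 peak lists. The replicates carried the numbers 2, 3 and 4. Both genotypes were on a 129S1/Sv background, and the Sirt7-/- mice carried the deletion constitutively. Each sample held 50000 cells of a different mouse, enriched from the testis by differential plating, and came with its own input library.

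Histone acetyltransferases transfer an acetyl group from acetyl-CoA to lysines of histone tails, and sirtuins such as SIRT7 remove it. KAT2A and KAT2B, also known as GCN5 and PCAF, are the acetyltransferases best known for acetylating lysine 36 of histone H3, within the SAGA and ATAC complexes. The MYST acetyltransferases KAT5, KAT6A, KAT6B, KAT7 and KAT8 work in other complexes, and the scaffold proteins BRPF1, BRD1 and BRPF3 join KAT6A, KAT6B or KAT7 to chromatin and direct them toward histone H3.

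The lists differed greatly in length. They held 906, 64 and 294 peaks in WT replicates 2, 3 and 4 and 2840, 2045 and 2591 peaks in the Sirt7-/- replicates of the same numbers. Read coverage was not used here, so signal strengths were not compared across samples, and a gene without a peak may still carry the mark. At Sirt7 itself, none of the lists had a peak within 3 kb of the start, so the calls do not check the genotype. Of 12 spermatogonial marker genes, 5 had such a peak in at least 1 Sirt7-/- sample and 1 in a WT sample. Among markers of other testis cells, 1 of 4 Sertoli genes had a peak, in 1 Sirt7-/- sample, against 0 of 4 Leydig, 0 of 2 peritubular myoid and 0 of 2 macrophage genes. Over all protein-coding genes, 19.3% had a peak in at least 1 Sirt7-/- sample and 5.12% in at least 1 WT sample. In at least 2 Sirt7-/- and no WT samples, 0 of the 12 spermatogonial genes had one. With so few genes these calls do not check the cell type.

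Peaks at the acetyltransferase and BRPF genes were called mainly in the Sirt7-/- samples. A promoter peak, meaning one that reached within 3 kb of the gene start, was called at 3, 6 and 5 of the 10 genes in Sirt7-/- replicates 2, 3 and 4. In WT replicates 2, 3 and 4 it was called at 1, 0 and 0 genes. The Sirt7-/- samples averaged 4.67 ± 1.53 genes (SD, n = 3). The WT samples averaged 0.333 ± 0.577 genes (SD, n = 3). The counts did not overlap between genotypes. Neither did the shares of all protein-coding genes, at 9.73% to 13.2% in Sirt7-/- and 0.317% to 4.38% in WT samples.

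The same calls across all protein-coding genes give the background for these counts. In the Sirt7-/- replicates 2, 3 and 4 a promoter peak was called at 13.2%, 9.73% and 11.7% of genes, beside 30%, 60% and 50% of the 10. In the WT replicates it was called at 4.38%, 0.317% and 1.35%, beside 10%, 0% and 0% of the 10. Since these calls were known when the genes were selected, nothing is read from the distance to the background. Sirt7-/- replicate 3 had the shortest list of its genotype and the lowest background, yet held peaks at more of the 10 genes than the other two.

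**Figure D1:**
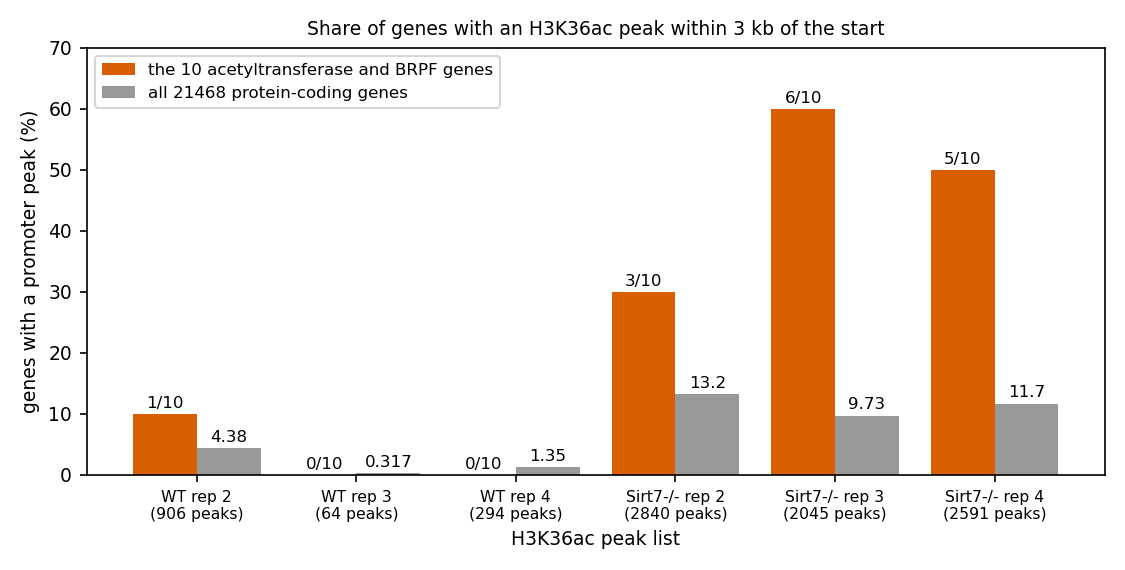
Share of genes with an H3K36ac peak within 3 kb of the start (%), for the 10 acetyltransferase and BRPF genes (orange, with the number of genes) and for all 21468 protein-coding genes (grey, with the percentage), in each of the 6 lists; the number of peaks per list stands under its name. Orange bars reach 30% to 60% in the Sirt7-/- lists and 0% to 10% in the WT lists, and each list is a single sample, so there are no error bars.

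Combined over samples, 7 of the 10 genes had a peak in at least 1 Sirt7-/- sample, against 19.3% of all protein-coding genes. In at least 2 Sirt7-/- and no WT samples the count was 4 genes, namely Brpf3, Kat5, Kat6b and Kat7, against a background of 6.47%. Brpf3, Kat5 and Kat7, 3 of the 10, had a peak in all 3 Sirt7-/- and no WT samples, against 2.45%. Brpf1 and Brd1 each had a peak in exactly 1 Sirt7-/- and no WT samples, a pattern seen at 8.16% of genes. Kat8 was the single gene of the 10 with a WT peak, against 5.12% of all genes. No peak was called in any sample at Kat2a, Kat2b and Kat6a, where 80.3% of all genes also had none.

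The difference in list length touched these counts. When only the 294 peaks with the lowest p were kept in each list and the still shorter list of WT replicate 3 was dropped, the Sirt7-/- replicates 2, 3 and 4 held peaks at 2, 4 and 2 of the 10 genes and WT replicates 2 and 4 at none. Brpf3 and Kat5 then remained in all 3 Sirt7-/- lists, whereas Kat6b, Kat7 and Kat8 had no peak left. Over all protein-coding genes, 3.33% then had a peak in at least 1 of the 3 Sirt7-/- samples. For at least 1 of the 2 WT samples left, the share was 2.45%. These backgrounds lay much closer than in the full lists, but they rest on unequal numbers of lists. At 64 peaks per list, Brpf3 was the only gene of the 10 left, in Sirt7-/- replicates 2 and 3, and these shares were 0.783% and 0.834%.

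The 10 genes had 15 promoter peaks, 14 of them in Sirt7-/- samples. These peaks were about as wide as the median peak of the Sirt7-/- lists, and their median fold lay above it. Their widths ran from 213 to 1633 bp with a median of 482 bp, and their fold over input, as given by the authors' peak caller, ran from 3.53 to 7.66 with a median of 4.96. The median peak of the Sirt7-/- lists was 456 to 480 bp wide with a fold of 4.05 to 4.68. Within their lists the peaks were ranked by p and the rank turned into a percentile, where 100 is the strongest peak. The 15 percentiles ran from 10.02 to 99.4 with a median of 86.9, and 6 peaks stood in the top 10% of their list. The scale of folds and ranks belongs to each list, so these ranges describe the peaks, and no change between samples is read from them.

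**Figure D2:**
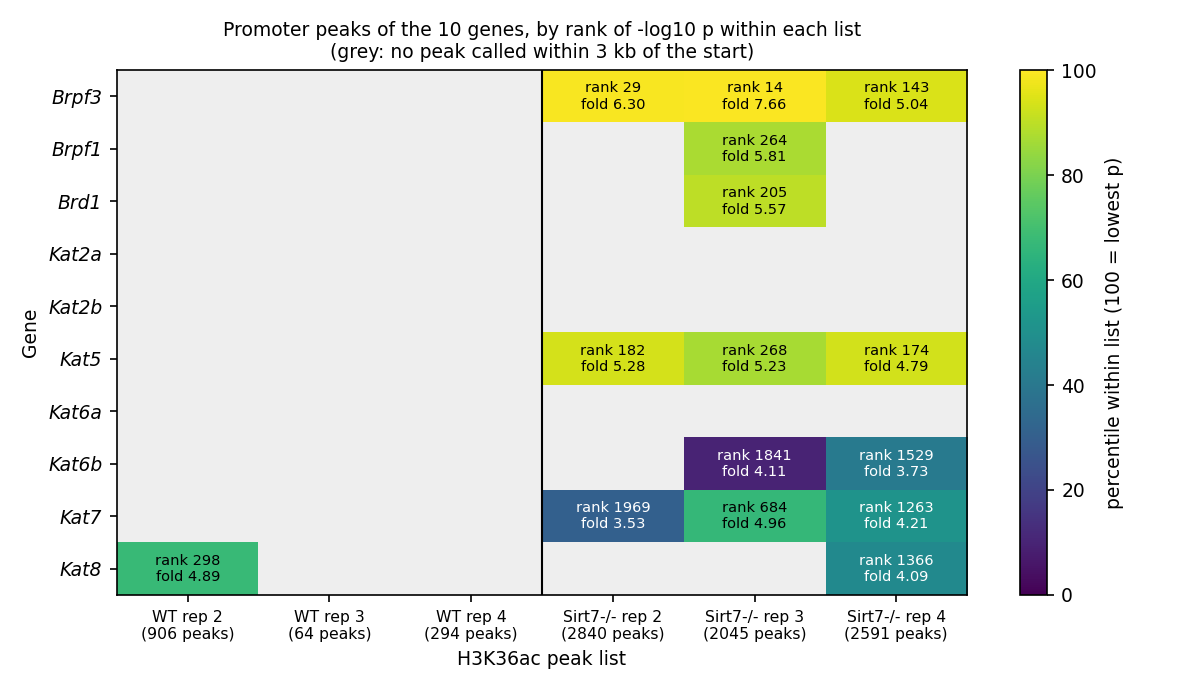
The 10 genes (rows) in the 6 peak lists (columns, with the number of peaks): colour gives the percentile of the promoter peak's -log10 p within its list (0 to 100), and the text gives its rank and its fold over input. Grey cells had no peak within 3 kb of the start; Brpf3, Kat5 and Kat7 are filled in all 3 Sirt7-/- columns, Kat8 alone is filled in a WT column, and Kat2a, Kat2b and Kat6a are empty.

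Brpf3 encodes a BRPF scaffold known mainly as a partner of KAT7, and it had the strongest peaks of the 10 genes. The gene lies on the plus strand at chr17:28801126-28838789 of mm10. In Sirt7-/- replicate 2 its peak spanned chr17:28800531-28802163, with a fold of 6.30 and rank 29 of 2840 by p. In replicate 3 it spanned chr17:28801102-28801560, with a fold of 7.66 and rank 14 of 2045. In replicate 4 it spanned chr17:28801079-28801560, with a fold of 5.04 and rank 143 of 2591. All 3 peaks held the gene start and shared 459 bp, which began 24 bp before the start and ended 434 bp into the gene. The peak of replicate 2 was 1633 bp wide, wider than 98.3% of the peaks of its list, against 459 and 482 bp in the other two. No WT list had a peak within 3 kb of the Brpf3 start.

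Among the 525 protein-coding genes with a peak in all 3 Sirt7-/- and no WT samples, Brpf3 had the highest mean percentile, 97.6. Kat5 stood at rank 8 with 91.3 and Kat7 at rank 315 with 49.5. The calls of these 525 genes are the same by construction, so the rank describes how strong the peaks were within the lists. The 5 genes whose 3 percentiles lay closest to those of Brpf3 were Sar1a, Farsb, Tbl1xr1, Bach2 and Btg3, with a mean absolute difference of 3.35, 3.55, 3.70, 5.73 and 6.28 percentile points over the 3 Sirt7-/- lists.

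The promoter of Brpf3 is shown because it carried the highest ranked peak of the 10 genes. The sequence is that of RefSeq (GRCm38.p6), chr17:28800876-28801175 on the plus strand, from 250 bases before to 50 after the start, and capitals mark the 97 bases that lay inside the peaks of at least 2 Sirt7-/- lists.
Brpf3 promoter: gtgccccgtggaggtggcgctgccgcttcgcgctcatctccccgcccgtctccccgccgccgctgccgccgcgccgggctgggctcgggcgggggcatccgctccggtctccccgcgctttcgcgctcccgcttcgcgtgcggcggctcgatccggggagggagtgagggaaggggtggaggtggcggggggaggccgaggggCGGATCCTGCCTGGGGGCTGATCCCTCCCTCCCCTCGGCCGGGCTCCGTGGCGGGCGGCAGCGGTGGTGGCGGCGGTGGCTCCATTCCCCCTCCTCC
It held 40 CpG dinucleotides, more than 95.2% of the 17492 protein-coding promoters of the same length, and 78.7% of its bases were G or C. The peak of replicate 2 covered this whole stretch, those of replicates 3 and 4 its end, and all 3 reached further into the gene.

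Brpf1 and Brd1 encode the other BRPF scaffolds, and each had a peak in Sirt7-/- replicate 3 alone. Brpf1, on the plus strand at chr6:113306863-113324862, had a peak at chr6:113306925-113307418, from 62 to 555 bp into the gene, with a fold of 5.81 and rank 264 of 2045. Brd1, on the minus strand at chr15:88687034-88734228, had a peak at chr15:88733509-88734001, from 227 to 719 bp into the gene, with a fold of 5.57 and rank 205 of 2045. Both stood high in that list, at percentiles of 87.1 and 90.02, and had no counterpart in the other Sirt7-/- lists. The lncRNA Gm41377 starts 107 bp from Brd1 on the other strand, and the signal of the Brd1 peak cannot be assigned to one of the 2 genes. For Brpf1 the nearest peak of Sirt7-/- replicate 4 lay 70.4 kb from the start.

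Kat6a and Kat6b encode the closely related catalytic subunits that BRPF1 and its relatives hold. Kat6b, on the plus strand at chr14:21499216-21672478, had a peak at chr14:21499458-21499696 in Sirt7-/- replicate 3, with a fold of 4.11 and rank 1841 of 2045. In replicate 4 it had a peak at chr14:21499748-21500002, with a fold of 3.73 and rank 1529 of 2591. The peaks did not overlap and were 51 bp apart, and both were weak for their list, at percentiles of 10.02 and 41.0. Requiring a -log10 q of at least 2 removed the peak of replicate 3 and took Kat6b out of the genes called in at least 2 Sirt7-/- samples. A -log10 p of at least 5.99 removed both peaks. Kat6a, on the plus strand at chr8:22859442-22943259, had no promoter peak in any list, and the nearest Sirt7-/- peak lay 179 to 266 kb from its start.

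Kat7 encodes HBO1, the catalytic subunit that BRPF3 is known to hold, which acetylates histone H3 and H4 and is known for its part in replication licensing. The gene lies on the minus strand at chr11:95271853-95310246. In Sirt7-/- replicate 2 its peak spanned chr11:95309924-95310797, with a fold of 3.53 and rank 1969 of 2840. In replicate 3 it spanned chr11:95309974-95310186, with a fold of 4.96 and rank 684 of 2045. In replicate 4 it spanned chr11:95309963-95310734, with a fold of 4.21 and rank 1263 of 2591. Kat7 thus had a peak in the same samples as Brpf3, but at percentiles of 30.7, 66.6 and 51.3 where Brpf3 stood at 99.0, 99.4 and 94.5. Requiring a -log10 q of at least 2 removed its peak in replicate 2, and a -log10 p of at least 5.99, the highest of the lowest values of the 6 lists, also left it in 2 of the 3 Sirt7-/- lists. The 3 peaks shared 213 bp inside the gene, and those of replicates 2 and 4 also covered the start and the sequence upstream of it. The lncRNA Gm11520 starts 170 bp away on the other strand, and the ChIP signal cannot be assigned to one of the 2 genes.

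The Kat7 promoter is shown as the only listed one that lay wholly inside the peaks of at least 2 Sirt7-/- lists, those of replicates 2 and 4. The peak of replicate 3, and so the 213 bp shared by all 3 peaks, lay outside it. The promoter is from RefSeq (GRCm38.p6), chr11:95310197-95310496 on the minus strand, 5′ to 3′ along the gene, and all 300 bases are in capitals, inside the peaks of at least 2 Sirt7-/- lists.
Kat7 promoter: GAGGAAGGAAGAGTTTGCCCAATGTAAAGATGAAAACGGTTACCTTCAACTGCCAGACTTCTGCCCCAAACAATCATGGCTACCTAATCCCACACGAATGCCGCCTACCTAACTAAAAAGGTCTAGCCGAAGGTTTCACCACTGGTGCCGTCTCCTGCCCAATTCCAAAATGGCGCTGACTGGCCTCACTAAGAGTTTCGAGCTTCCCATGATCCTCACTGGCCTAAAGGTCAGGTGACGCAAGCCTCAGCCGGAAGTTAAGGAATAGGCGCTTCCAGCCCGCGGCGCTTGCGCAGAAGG
With 14 CpG it was close to the median of 13 over all promoters, far from the CpG density of Brpf3. It held the ETS core CCGGAAG, found in 11.9% of promoters, and the YY1 core ATGGCG, found in 11.2%.

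Kat5 encodes TIP60, the catalytic subunit of the NuA4 complex, known for acetylating histones H4 and H2A and for its part in the DNA damage response. The gene lies on the minus strand at chr19:5603014-5611556. In Sirt7-/- replicate 2 its peak spanned chr19:5609752-5610468, with a fold of 5.28 and rank 182 of 2840. In replicate 3 it spanned chr19:5609856-5610182, with a fold of 5.23 and rank 268 of 2045. In replicate 4 it spanned chr19:5609797-5610028, with a fold of 4.79 and rank 174 of 2591. Among the 10 genes its peak came directly after that of Brpf3 in replicates 2 and 4, and after those of Brpf3, Brd1 and Brpf1 in replicate 3. The peaks shared 173 bp and were centred 1446, 1537 and 1643.5 bp inside the gene as the table draws it. The start of the table lies 1462 bp upstream of the first transcript start listed in the RefSeq promoter table, at 5610094, and the midpoints lay -16, 75 and -168.5 bp from the listed start nearest to each.

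The promoter at that listed start of Kat5 is shown because the peaks of replicates 2 and 3 overlapped it, while that of replicate 4 lay just beyond it, nearer the other listed start at 5609744. The 173 bp shared by all 3 peaks, chr19:5609856-5610028, lay outside the stretch shown. The promoter of the other listed start, not shown, spans chr19:5609695-5609994 and had 198 bases inside at least 2 Sirt7-/- peaks. The one shown is from RefSeq (GRCm38.p6), chr19:5610045-5610344 on the minus strand, with the 138 bases inside at least 2 Sirt7-/- peaks in capitals.
Kat5 promoter: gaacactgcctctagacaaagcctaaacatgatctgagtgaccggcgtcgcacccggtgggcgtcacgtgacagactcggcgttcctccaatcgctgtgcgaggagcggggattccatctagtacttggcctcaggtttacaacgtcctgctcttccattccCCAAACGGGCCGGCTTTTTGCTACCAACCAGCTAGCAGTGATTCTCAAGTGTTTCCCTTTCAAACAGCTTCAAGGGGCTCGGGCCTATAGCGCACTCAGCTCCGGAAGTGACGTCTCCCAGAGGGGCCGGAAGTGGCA
It held 19 CpG, more than 61.7% of promoters, the ETS core CCGGAAG and the E-box CACGTG. The E-box was found in 7.90% of promoters and in no other gene here with a listed promoter. Taken from the start of the table, the Kat5 peaks were the farthest of the 15, and the closest base of the farthest one lay 1528 bp away. The nearest peak outside the 3 kb limit, over all 10 genes and Sirt7-/- lists, was 35802 bp from the start of Kat8. A limit of 1 kb removed Kat5 and no other gene.

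Kat8 encodes MOF, known for acetylating lysine 16 of histone H4 in the MSL and NSL complexes, and it was the only gene of the 10 with a peak in both genotypes. The gene lies on the plus strand at chr7:127912517-127925838. In WT replicate 2 its peak spanned chr7:127912551-127912767, with a fold of 4.89 and rank 298 of 906. In Sirt7-/- replicate 4 it spanned chr7:127912149-127912801, with a fold of 4.09 and rank 1366 of 2591. The WT peak lay wholly within the Sirt7-/- one, and they shared 217 bp. A -log10 p of at least 5.99 removed the Sirt7-/- peak, which stood at 5.986, and kept the WT peak. The 2 Sirt7-/- replicates without a peak at Kat8 had their nearest peak 36071 and 35802 bp from the start.

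Kat2a and Kat2b, whose products are the acetyltransferases known for the mark measured here, had no promoter peak in any of the 6 lists. Kat2a lies on the minus strand at chr11:100704746-100712485 and Kat2b on the plus strand at chr17:53566774-53672721. The nearest Sirt7-/- peak lay 92.5 to 137.7 kb from the start of Kat2a and 86.9 to 87 kb from that of Kat2b. No peak was called elsewhere in the body of these or of the other 8 genes.

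The promoters of Kat2a and Kat2b are shown for comparison with those that carried peaks. Both are from RefSeq (GRCm38.p6), Kat2a at chr11:100712418-100712717 on the minus strand and Kat2b at chr17:53566721-53567020 on the plus strand, and neither has capitals, since no base lay in a peak.
Kat2a promoter: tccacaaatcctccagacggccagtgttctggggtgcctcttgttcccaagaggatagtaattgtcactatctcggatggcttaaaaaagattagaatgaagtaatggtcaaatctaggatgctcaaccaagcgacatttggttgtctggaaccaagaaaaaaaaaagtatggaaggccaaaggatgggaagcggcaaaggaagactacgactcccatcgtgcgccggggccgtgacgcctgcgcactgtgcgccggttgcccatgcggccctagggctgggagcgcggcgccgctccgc
Kat2b promoter: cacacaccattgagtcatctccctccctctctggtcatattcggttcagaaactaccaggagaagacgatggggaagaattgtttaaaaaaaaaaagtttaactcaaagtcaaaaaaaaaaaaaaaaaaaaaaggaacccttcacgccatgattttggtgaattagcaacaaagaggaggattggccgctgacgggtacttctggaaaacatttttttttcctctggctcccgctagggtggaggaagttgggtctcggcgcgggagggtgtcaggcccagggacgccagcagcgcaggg
Kat2a held 19 CpG, as many as the first listed Kat5 promoter, and Kat2b held 11, the fewest among the first listed promoters of the 9 genes.

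**Figure D3:**
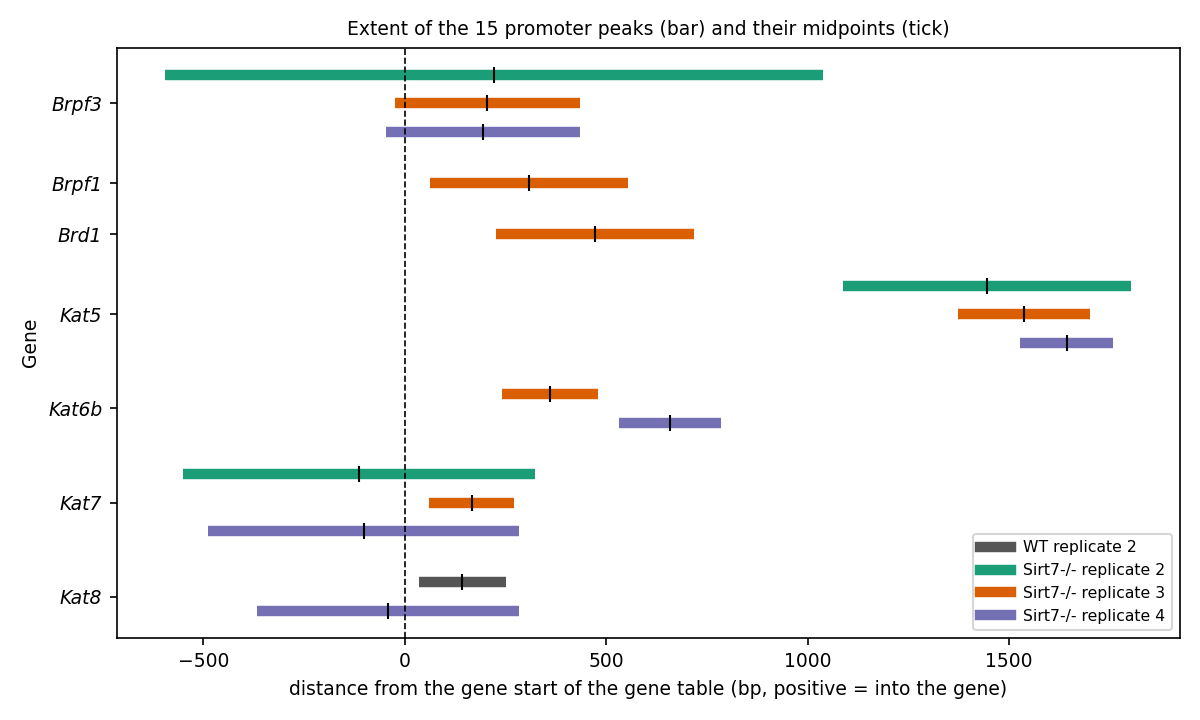
Extent (bars) and midpoint (ticks) of the 15 promoter peaks in bp from the gene start of the gene table, positive into the gene, coloured by sample; the dashed line marks the start. Most bars lie at or just after the start, whereas the 3 Kat5 bars lie more than 1000 bp into the gene as the table draws it.

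Where the peaks lay depended on the start that was used, since for Kat5, Kat6b and Brpf1 the start of the gene table lies upstream of the transcript starts of the RefSeq promoter table. Of the 15 peaks, 12 had their midpoint inside the gene as the gene table draws it, 9 lay wholly inside it and 6 held its start. Against the nearest listed transcript start, 9 midpoints lay downstream and 6 upstream, and 10 peaks held that start, that of Brpf1 among them. From the start of the gene table the midpoints ran from -114.5 bp at Kat7 to 1643.5 bp at Kat5 with a median of 221 bp. All 15 reached within 500 bp of a transcript start listed by RefSeq.

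Base composition moved with the calls across all genes. When the 17492 protein-coding promoters were ordered by CpG count and cut into 4 equal groups, 1.69%, 8.76%, 24.8% and 42.0% had a peak in at least 1 Sirt7-/- sample. A peak in at least 1 WT sample was found at 0.412%, 1.76%, 5.85% and 12.7%, and a peak in at least 2 Sirt7-/- and no WT samples at 0.617%, 2.77%, 7.59% and 14.6%. Of the 9 genes with a listed promoter, Brpf3, Brd1, Kat6b and Brpf1 lay in the highest group, with 40, 36, 32 and 25 CpG, and each had a Sirt7-/- peak. Kat5, Kat2a and Kat7 lay in the next group with 19, 19 and 14 CpG, and Kat8 and Kat2b in the one below with 12 and 11. By their first listed promoter, genes with peaks thus ran from 12 to 40 CpG, and Kat5 and Kat2a had the same count but peaks in 3 and 0 lists. The other listed Kat5 promoter, however, held 29 CpG. It had 198 bases inside at least 2 Sirt7-/- peaks, against 138 in the first. The part of CpG content in the calls was not tested.

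**Figure D4:**
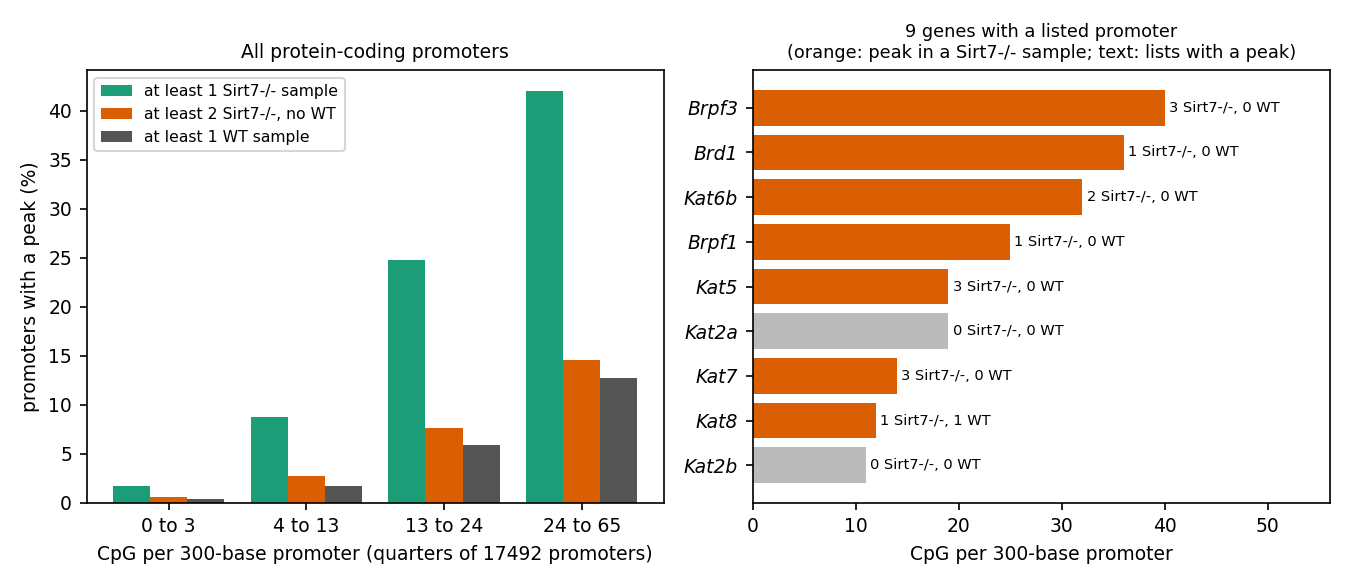
Left, share of protein-coding promoters (%) with a peak in at least 1 Sirt7-/- sample, in at least 2 Sirt7-/- and no WT samples, and in at least 1 WT sample, in 4 equal groups of 17492 promoters by CpG count. Right, CpG count of the first listed 300-base promoter of 9 genes, orange with and grey without a Sirt7-/- peak. The green bars rise from 1.69% to 42.0%, and the genes with peaks run from 12 CpG at Kat8 to 40 at Brpf3.

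Both strands of the first listed promoter of the 9 genes were also searched for short motif cores, given by their letters. The GC box GGGCGG was in the promoters of Brpf1, Kat8, Kat6b, Brd1 and Brpf3 and in 46.3% of all promoters. The ETS core CCGGAAG was in those of Kat8, Kat7 and Kat5, and CCAAT in those of Kat8, Kat7, Kat2b and Kat5 against 39.0% of all. The YY1 core ATGGCG was in those of Kat8, Kat7 and Kat2b. The NRF1 core GCGCATGC, the CRE TGACGTCA and TATAAA were in none of the 9 and in 3.61%, 2.34% and 13.3% of all promoters. A match in letters is a description and not a binding site, and no core was shared by all of the genes with peaks.

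The subunits that work with these enzymes were counted in a list of 65 genes for their complexes and for other acetyltransferases. A Sirt7-/- peak was called at 33 of the 65 (50.8%), a peak in at least 2 Sirt7-/- and no WT samples at 13 (20.0%), and a WT peak at 13, while 30 had none. The shares over all protein-coding genes were 19.3%, 6.47% and 5.12%, and the list was drawn up with these calls known. The same shares are the background for the counts of each single complex below. The counts per sample were 26, 21 and 23 genes in Sirt7-/- replicates 2, 3 and 4 and 12, 1 and 3 in the WT replicates. The complexes of the BRPF proteins, KAT6 and KAT7 had no WT peak among 6 further subunits. Of these, 3 had a Sirt7-/- peak: Ing5 and Meaf6 in replicate 2 and Jade2 in replicates 2 and 4. None of the 6 had a peak in replicate 3, the sample in which Brpf1 and Brd1 had theirs and 9.73% of all protein-coding genes had one. At these shares nothing is read from the absence of a peak among 6 genes.

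For the KAT2 complexes SAGA and ATAC, 11 of 23 subunit genes had a Sirt7-/- peak and 4 a WT peak, although Kat2a and Kat2b had neither. Of the 4, 1 had its peak in WT alone. Tada3, an adaptor subunit of both complexes, had a peak in WT replicates 2 and 4 and in all 3 Sirt7-/- lists, with its peak at rank 3 of 906 and 48 of 294 in those WT lists and, in Sirt7-/- replicates 2 to 4, at rank 271 of 2840, 2015 of 2045 and 145 of 2591. Zzz3 of ATAC had a peak in WT replicate 2 and all Sirt7-/- lists, and Taf9 of SAGA in the 3 Sirt7-/- lists alone.

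For KAT5, 7 of 16 NuA4 genes had a Sirt7-/- peak and 2 a WT peak, 1 of these in WT alone. Morf4l1, a chromodomain subunit, ranked 60 of 906 in WT replicate 2. In the Sirt7-/- lists it ranked 68 of 2840 (replicate 2), 81 of 2045 (replicate 3) and 982 of 2591 (replicate 4). Mbtd1 had a peak in the Sirt7-/- lists alone, with a mean percentile of 29.4. For KAT8, 7 of 10 MSL and NSL genes had a Sirt7-/- peak and 3 a WT peak. The NSL subunit genes Kansl1, Kansl2 and Kansl3 each had a peak in WT replicate 2 and all Sirt7-/- lists, like Kat8 in that WT list, and Msl1 and Msl2 had one in the 3 Sirt7-/- lists alone.

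Of 10 other acetyltransferase genes, 5 had a Sirt7-/- peak and 4 a WT peak. Ep300 and Crebbp, which encode the paralogous coactivators p300 and CBP, differed in their calls. Ep300 had a promoter peak in all 6 lists, at rank 196 of 906, 40 of 64 and 209 of 294 in WT replicates 2, 3 and 4 and at rank 62 of 2840, 84 of 2045 and 547 of 2591 in the Sirt7-/- replicates. Crebbp had a peak in the 3 Sirt7-/- lists alone, at rank 1441 of 2840, 656 of 2045 and 2410 of 2591. Gtf3c4, a transcription factor IIIC subunit with acetyltransferase activity, had a peak in WT replicate 2 and all Sirt7-/- lists. Its WT peak, with the midpoint at -930 bp from the start, overlapped none of the Sirt7-/- peaks, whose midpoints lay at -15, -61 and 95.5 bp. None of the 10 genes described above had a peak in all 6 lists, as Ep300 did.

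**Figure D5:**
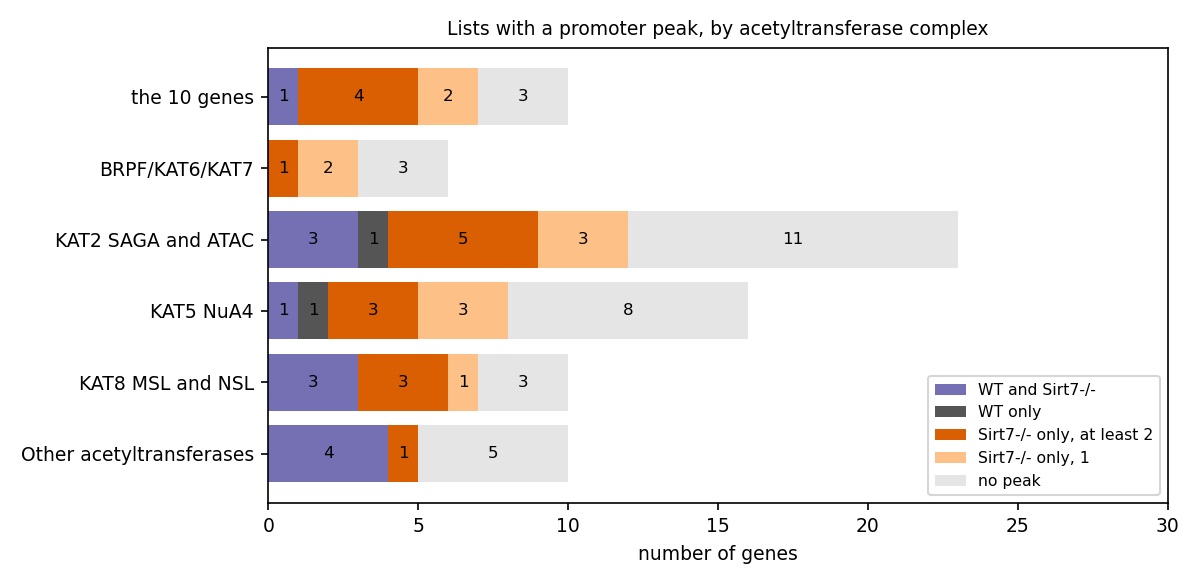
Number of genes by the lists in which a promoter peak was called, for the 10 genes and for 5 groups of partner genes (65 in all); colours separate genes with a peak in both genotypes, in WT alone, in at least 2 or in 1 Sirt7-/- sample alone, and in none. Of the 10 genes 1 had a peak in both genotypes and 4 in at least 2 Sirt7-/- samples alone, and of the 23 SAGA and ATAC genes these were 3 and 5.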

How the data were processed

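H3K36ac ChIP-seq peak lists of 6 samples were used. Trimming by the authors used Trim Galore 0.6.6 and alignment to mm10 used Bowtie2 2.4.4.1. Reads of mapping quality 30 or more were kept with SAMtools 1.19.2, and of these Sambamba kept those that were unique and not duplicated. Broad peaks were then called with MACS2 2.2.5 (broad cutoff 0.1), separately for every sample and with the matching input as control. No spike-in factor was applied and replicates were not pooled. Peak positions were deposited with a score, which is a whole-number form of -log10 q and was not used, with the fold over input as a ratio computed by the authors, and with the -log10 of p and of q computed by the authors. The 6 input libraries entered through peak calling alone. The study states clean reads per library before duplicates were removed. The lists themselves hold no read counts, so no interval was given for a single call.

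The 10 genes, the subunit and marker lists and the motifs were chosen with earlier results of these data known. Gene positions came from RefSeq (GRCm38.p6), with 1 start per gene, no exons and no alternative starts. Of 21887 protein-coding genes, 21468 (98.1%) had a strand, taken from the RefSeq promoter table for 17492 and by symbol and chromosome from GENCODE vM39 for 3976. A gene was called when any base of a peak lay within 3000 bp of its start. Peaks were ranked by -log10 p within their list, and the percentile is the share of that list with this rank or a weaker one. All 10 genes are named. Subunits of the BRPF, KAT6 and KAT7 group with a peak are named. At most 8 subunits with a WT peak are named, by mean percentile. The same holds for those with a peak in all 3 Sirt7-/- and no WT samples. That percentile is taken over the Sirt7-/- lists, so genes with a peak in WT alone are counted but not named. No test was run, since the calls chose the genes, and 3 samples against 3 cannot give an exact permutation p below 0.1. The promoter of Kat6a was not used here. The scripts were tested on simulated lists. Python 3.11.15, pandas 2.3.3, NumPy 2.4.6 and matplotlib 3.10.9 were used.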

Additional observations from a re-analysis of the deposited data

How the results depend on the processing

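Of 16 alternatives, 15 were planned and 1, the use of every listed transcript start, was added after seeing the data and changed no count. With peaks of at least 500 bp, the mean number of the 10 genes per Sirt7-/- sample fell to 1.67, 1 gene (Kat7) was called in at least 2 Sirt7-/- and no WT samples, 0 in all 3, 0 in any WT sample, and 6 had no peak. With the 64 strongest peaks per list these values were 0.667, 1 (Brpf3), 0, 0 and 9. With 294 per list and WT replicate 3 dropped they were 2.67, 2, 2, 0 and 6. Fewer peaks enter under each of these by construction. Leaving out 1 sample at a time gave a Sirt7-/- mean of 4 to 5.5, a WT mean of 0 to 0.5, 3 to 4 genes in at least 2 Sirt7-/- and no WT samples, 0 to 1 genes with a WT peak (0 without WT replicate 2, the sample with the Kat8 peak) and 3 to 5 with none (5 without Sirt7-/- replicate 3, the sample with the Brpf1 and Brd1 peaks). Windows of 1000 and 5000 bp, the midpoint or 50% of the peak in the window, a -log10 q of at least 2 and a common -log10 p of at least 5.99 kept each count within 1.5 times or 1 SD of its value. At that -log10 p, however, Kat6b had no peak left, and Kat8 kept its WT peak but lost its Sirt7-/- peak. No paired analysis was possible because the counts come from no test. List length limits the calls in WT, above all in replicate 3 with 64 peaks. The weakest listed peak also differed, with a -log10 p of 4.88, 5.99 and 5.36 in WT replicates 2, 3 and 4. In the Sirt7-/- replicates it was 4.33, 4.54 and 4.39. The Kat7 peak of Sirt7-/- replicate 2, at 5.27, and the Kat6b peak of replicate 3, at 5.32, lay below the weakest peak of WT replicates 3 and 4.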
